A study of Rattus norvegicus with 6 samples.

Results

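Mogat2 encodes monoacylglycerol acyltransferase 2, which joins a fatty acid to a monoacylglycerol to make diacylglycerol. It was examined together with 9 genes of triglyceride assembly, storage and breakdown: Gpam, Agpat2, Lpin1, Dgat1, Dgat2, Plin2, Pnpla2, Lipe and Cd36. The 10 genes were chosen by function around Mogat2, whose higher signal after monuron was already known. They were found on the array as probes whose accession belongs to one of the genes, which gave 21 probes, out of 15645 gene symbols on the array and 30229 genes tested. Because this same contrast led to the choice, the differences of the 10 genes are given as descriptions. The fit over all genes includes them, and its calls among them are counted once, beside the share of all genes called, and support nothing.

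Tissue was renal cortex of male Sprague-Dawley rats (Crl:CD(SD)), bought at 5 weeks of age. One group of 3 rats received monuron, a phenylurea herbicide, at 200 mg/kg/day for 4 weeks. The other 3 rats, labelled VC (vehicle control), received corn oil for 4 weeks. Each rat's RNA, carrying the dye Cy3, was read on a 1-colour Agilent array of its own, and the series' design text speaks of biological replicates. All 3 monuron arrays lay on one slide and all 3 corn oil arrays on another, scanned on another day, so an effect of slide or scan day and an effect of monuron cannot be told apart in any value below.

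Most triglyceride is built by adding fatty acids to glycerol 3-phosphate. A second, shorter route starts from monoacylglycerol and is best known from enterocytes of the small intestine, which use it to rebuild fat absorbed from the diet. Both routes meet at diacylglycerol, to which Dgat1 or Dgat2 adds the last fatty acid. The product is kept in droplets coated by perilipins until lipases release it. Proximal tubule cells, which make up much of the renal cortex, burn fatty acids as their main fuel and can hold such droplets.

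Levels are given as relative signal, which is a probe's processed signal divided by the 75th percentile of the signals on its array. A relative signal of 1 therefore means a probe as bright as that percentile. Different probes bind with different strength, so levels are compared between arrays and never between probes. Of the 61537 non-control probes, 60.9% to 70.4% were well above background on each array, and the 75th percentile lay between 824.8 and 922.0 intensity units. All 21 probes of the 10 genes passed the detection filter, which kept a probe when all 3 monuron arrays, or all 3 corn oil arrays, measured it well above background. On all 6 arrays 19 of them were well above background. The exceptions were the Lpin1 probe, detected on 3 monuron arrays and 1 corn oil array, and Mogat2 probe A_64_P039683, detected on 3 monuron arrays and on 0 corn oil arrays.

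Mogat2 differed more on its brightest probe than any probe of the other 9 genes did. On this probe, A_64_P118982, the relative signal was 1.52, 2.69 and 2.31 on monuron arrays 1 to 3, against 0.425, 0.335 and 0.371 on corn oil arrays 1 to 3. The lowest monuron array was thus above the highest corn oil array. The mean log2 level was 1.08 ± 0.43 with monuron and -1.41 ± 0.17 with corn oil (SD, n = 3 each). This is a log2 difference of 2.49 ± 0.23 (SE), or 5.62-fold.

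The dimmest Mogat2 probe, A_64_P039683, lay near the detection limit and passed the filter only through the monuron arrays. The filter thus favoured a difference in this direction, and this probe lends no support to the brightest probe. Its relative signal was 0.0323, 0.0525 and 0.0455 with monuron, against 0.0110, 0.0157 and 0.00735 with corn oil. The measured log2 difference was 1.98 ± 0.32 (SE), and 0.42 with normexp background correction. Since no corn oil array measured this probe above background, the size of its difference is uncertain. Set against the lowest signal that counted as well above background on each corn oil array, the monuron mean was 1.81-fold higher. An undetected probe can lie above that lowest signal, so 1.81-fold is no strict lower bound.

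The remaining Mogat2 probe, A_44_P119107, differed far less. It read 0.321, 0.386 and 0.335 with monuron, against 0.263, 0.264 and 0.264 with corn oil. The groups did not overlap, and the 3 corn oil arrays were almost identical. The log2 difference was 0.39 ± 0.09 (SE), or 1.31-fold, and it became -0.12 when arrays were scaled on spike-in controls. Monuron array 2 was the highest and monuron array 1 the lowest on all 3 Mogat2 probes. Averaged over its 3 probes, Mogat2 had a log2 difference of 1.62. That mean takes in the dimmest probe, whose corn oil values are not above background. All 3 probes carry the same transcript accession in the scanner files, and where they lie within the transcript was not analysed here.

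**Figure D1:**
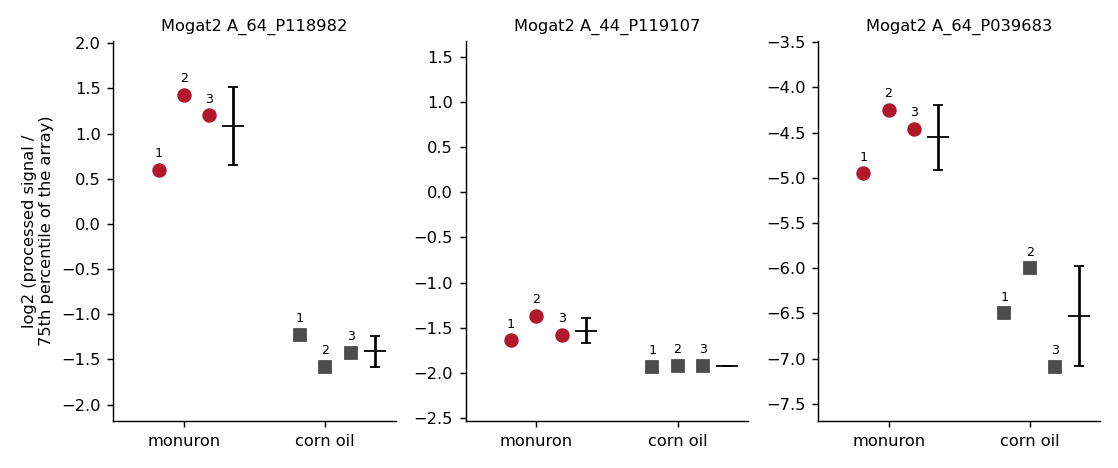
Level of each Mogat2 probe on every array, as log2 of the processed signal over the array's 75th percentile (vertical axis, the same span in each panel), for monuron (red circles) and corn oil (grey squares), numbered by replicate, with mean and SD beside each group. The monuron arrays lie above the corn oil arrays on all 3 probes, by 2.49, 0.39 and 1.98 from left to right. The difference of 0.39 turns negative under spike-in scaling, and the corn oil values of the right panel are not above background.

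Such a spread between probes of a gene was uncommon on these arrays. Among 1949 named genes with at least 3 passing probes, the log2 differences of a gene's probes spanned 0.19 at the median. For Mogat2 they spanned 2.10, a span reached by 3 genes (0.154%), Mogat2 included. The span was 0.53 for Lipe and 0.13 for both Dgat2 and Cd36. The Mogat2 probes were known to differ when the gene was chosen, so this too is a description.

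Across the 10 genes, represented by their brightest probes, Mogat2 was called higher by limma and 0 were called lower at an adjusted p under 0.05. The background is 0.949% of all tested genes called higher and 0.414% called lower, and nothing is read from the call of Mogat2, around which the genes were chosen. That call was lost in 5 of the 6 fits that left out 1 array, all but the one without monuron array 1. Groups did not overlap for 4 of the 10 genes (against 25.7% of all tested genes). Mogat2 had all monuron arrays above all corn oil arrays, as 15.5% of all genes did, and Dgat1, Pnpla2 and Lipe had them all below, as 10.3% did. Of the 21 probes 4 were separate upward (14.9% of all probes), 4 downward (10.7%), or 8 in either direction (25.6%), and nothing is read from these counts. The median log2 difference was 0.08 over the 10 genes and 0.02 over all genes. With percentile scaling over all 6 arrays, the difference exceeded 0.39 in size on none of the 18 probes outside Mogat2. With spike-in scaling it reached -0.87 on a Pnpla2 probe.

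**Figure D2:**
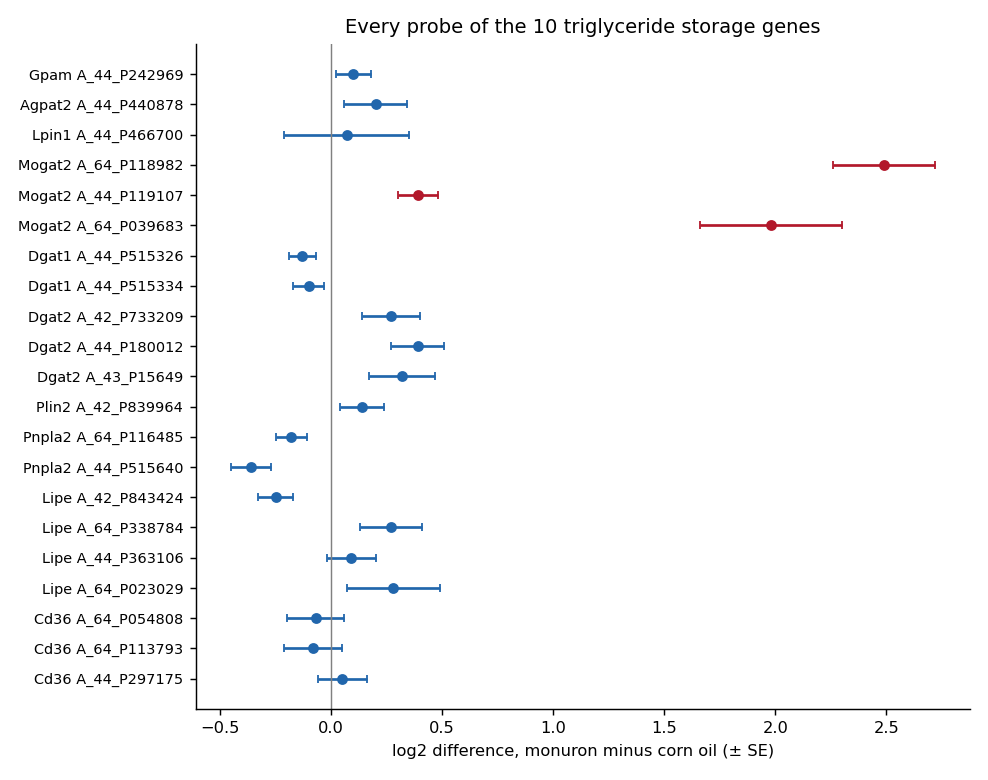
Log2 difference, monuron minus corn oil, with its SE for each of the 21 probes of the 10 genes (n = 3 arrays a group), brightest probe of a gene first. Mogat2 (red) is at 2.49 on its brightest probe, at 0.39 on another and at 1.98 on one that no corn oil array measured above background, while the 18 remaining probes (blue) lie between -0.36 and 0.39. Scaling on spike-in controls shifts every point left by about as much, so that only the 2 large Mogat2 differences stay above 0.

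The glycerol 3-phosphate route showed no such difference up to the diacylglycerol step. Gpam encodes the mitochondrial acyltransferase that opens this route. It read 0.149, 0.143 and 0.151 with monuron, against 0.138, 0.128 and 0.149 with corn oil, with overlapping groups and a log2 difference of 0.10 ± 0.08 (SE), or -0.41 with spike-in scaling. Agpat2, which adds the second fatty acid, read 0.483, 0.458 and 0.593 with monuron and 0.503, 0.396 and 0.431 with corn oil. The groups overlapped and the difference was 0.20 ± 0.14, or -0.31 with spike-in scaling. Lpin1, the phosphatase that yields diacylglycerol, was close to background at 0.0272, 0.0282 and 0.0274 with monuron and 0.0397, 0.0254 and 0.0179 with corn oil. Its monuron arrays lay inside the wide range of the corn oil arrays, and the difference was 0.07 ± 0.28, with its sign changing under 5 of 17 alternatives, spike-in scaling (-0.44) included.

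The enzymes that add the last fatty acid, Dgat1 and Dgat2, belong to unrelated protein families and had small differences. Those of Dgat1 were negative, and those of Dgat2 were positive except when arrays were scaled on spike-in controls. On its brighter probe Dgat1 read 7.77, 7.84 and 7.67 with monuron, against 8.53, 8.38 and 8.64 with corn oil. The groups were tight and separate, yet the difference was only -0.13 ± 0.06 (SE), or 1.10-fold lower with monuron. The other Dgat1 probe gave -0.10 ± 0.07 with overlapping groups. Dgat2 on its brightest probe read 6.27, 6.46 and 7.65 with monuron, against 5.06, 5.32 and 6.59 with corn oil. Replicate 3 was the highest array of both groups, and the groups overlapped. The 3 Dgat2 probes had log2 differences of 0.27 ± 0.13, 0.39 ± 0.12 and 0.32 ± 0.15, which became -0.24, -0.11 and -0.19 with spike-in scaling. Groups were separate on the second of these probes, A_44_P180012, at 0.599, 0.673 and 0.760 with monuron and 0.473, 0.492 and 0.579 with corn oil.

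Plin2, whose product coats lipid droplets and tracks the lipid a cell stores, had a bright probe in every rat. Its relative signal was 36.2, 36.4 and 34.1 with monuron and 33.4, 35.5 and 28.5 with corn oil. The groups overlapped, with corn oil array 3 the lowest of the 6. The log2 difference was 0.14 ± 0.10 (SE), and -0.37 with spike-in scaling. Over the other alternatives it ran from 0.03 to 0.23. An equally small difference was found for Cd36, a fatty acid transporter of the plasma membrane, with -0.07 ± 0.13, -0.08 ± 0.13 and 0.05 ± 0.11 on its 3 probes (-0.58, -0.59 and -0.46 with spike-in scaling). Cd36 on its brightest probe read 4.48, 4.41 and 3.92 with monuron, against 3.78, 4.83 and 4.92 with corn oil, and groups overlapped on all 3 probes.

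The lipase genes had mostly small negative differences on their brightest probes. Pnpla2 encodes adipose triglyceride lipase, which takes the first fatty acid off stored triglyceride. It read 3.31, 3.6 and 3.5 with monuron, against 3.78, 4.15 and 3.85 with corn oil. On its second probe it read 1.51, 1.80 and 1.73 with monuron and 2.25, 2.08 and 2.12 with corn oil. All monuron arrays were below all corn oil arrays on both probes, with log2 differences of -0.18 ± 0.07 and -0.36 ± 0.09 (SE). These kept their sign under every alternative run, from -0.69 to -0.09 on the first probe and from -0.87 to -0.25 on the second.

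Lipe encodes hormone-sensitive lipase, which acts mainly on diacylglycerol, and its 4 probes did not point one way. The brightest read 0.135, 0.122 and 0.124 with monuron and 0.160, 0.149 and 0.145 with corn oil, a difference of -0.25 ± 0.08 (SE) with separate groups. The 3 dimmer probes gave 0.27 ± 0.14, 0.09 ± 0.11 and 0.28 ± 0.21, all with overlapping groups, and -0.24, -0.42 and -0.23 with spike-in scaling. No direction can be given for Lipe as a gene.

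A further 114 genes around triglyceride metabolism were grouped by function into 7 lists. Of these, 99 had a named probe and 88 passed the detection filter. With limma, 0 of the 88 were called in either direction, against 1.36% of all tested genes, and the smallest adjusted p was 0.0668. At an unadjusted p under 0.05 there were 12 higher and 10 lower, or 25.0%, against 17.6% of all tested genes. Groups did not overlap for 16 higher and 14 lower genes, or 34.1%, against 25.7% of all. The median log2 difference of the 88 was 0.01, next to 0.02 for all genes. With limma's mean-variance trend and robust estimation 2 were called higher (Lpin3 and Lpl) and 3 lower (Dbi, Mgll and Slc27a1). That setting called 1.43% of all tested genes higher and 0.913% lower.

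**Figure D3:**
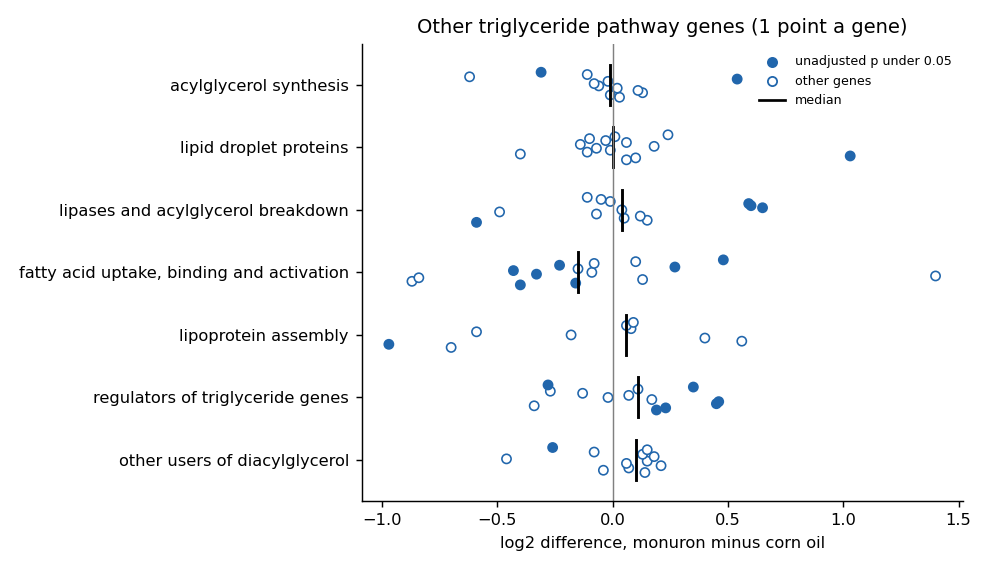
Log2 difference, monuron minus corn oil, of each of the 88 tested pathway genes (1 point a gene, brightest probe) in the 7 lists, with the list's median as a black bar and genes at an unadjusted p under 0.05 filled. Medians lie between -0.15 and 0.11, and 0 of the genes shown passed the adjusted threshold. Scaling on spike-in controls puts the median of all tested genes at -0.49.

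In the acylglycerol synthesis list 12 of 18 genes were tested, with a median log2 difference of -0.01 and 0 called (2 at an unadjusted p under 0.05). Lpin3, another phosphatidic acid phosphatase, read 11.5, 13.6 and 13.9 with monuron and 8.53, 9.07 and 9.13 with corn oil. Its groups were well apart, with a log2 difference of 0.54 ± 0.09 (SE, limma adjusted p = 0.0668) on this probe and 0.27 on its other one, and 0.03 on this probe with spike-in scaling. Gpd1, which supplies glycerol 3-phosphate, read 36.8, 38.7 and 34.3 with monuron and 46.7, 42.3 and 46.7 with corn oil (-0.31 ± 0.08, limma adjusted p = 0.144). Dgat2l6, a relative of Dgat2, was dim and overlapped between groups (-0.62 ± 0.29, limma adjusted p = 0.337). The other monoacylglycerol acyltransferases, Mogat1 and Mogat3, had 1 probe each that was well above background on at most 1 array of either group, and neither was tested.

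Of 19 lipid droplet genes 14 were tested, with 0 called (1 at an unadjusted p under 0.05) and a median of 0.00. Cidec, which promotes the fusion of droplets and is abundant in adipocytes, read 0.342, 0.607 and 0.741 with monuron, against 0.201, 0.303 and 0.298 with corn oil. The groups were separate, but the monuron arrays varied widely, and the log2 difference was 1.03 ± 0.32 (SE, limma adjusted p = 0.200). Fitm1 and Fitm2, which help to form droplets, had differences of -0.40 ± 0.23 (limma adjusted p = 0.428) and -0.11 ± 0.06 (limma adjusted p = 0.396). The perilipin genes Plin1, Plin3 and Plin4 had no probe named for them.

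Among lipases and related enzymes 13 of 17 genes were tested, with a median of 0.04 and 0 called (4 at an unadjusted p under 0.05). Mgll encodes monoacylglycerol lipase, which breaks down the substrate of Mogat2. It read 23.9, 26 and 20.4 with monuron, against 34.6, 34.1 and 36.9 with corn oil. The groups were far apart relative to their spread, yet the log2 difference of -0.59 ± 0.11 (SE) missed the threshold (limma adjusted p = 0.0715). Lpl, lipoprotein lipase, read 1.53, 1.46 and 1.22 with monuron and 0.849, 0.816 and 1.01 with corn oil (0.65 ± 0.13, limma adjusted p = 0.0882), and its difference was 0.14 with spike-in scaling. Lipg, endothelial lipase, gave 0.59 ± 0.22 (limma adjusted p = 0.249), and 0.08 with spike-in scaling.

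Fatty acid uptake, binding and activation held the lowest median, -0.15 over 15 tested genes of 20, with 0 called. At an unadjusted p under 0.05 there were 2 higher and 5 lower. Slc27a1, a fatty acid transport protein, read 2.49, 2.61 and 2.80 with monuron, against 3.39, 3.35 and 3.65 with corn oil (-0.40 ± 0.08 SE, limma adjusted p = 0.0850). Acsl1, which activates fatty acids with coenzyme A, read 37.6, 33.0 and 37.9 with monuron, against 54.8, 45.9 and 45.8 with corn oil (-0.43 ± 0.10, limma adjusted p = 0.126). Both were lower on every monuron array than on any corn oil array.

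All 9 lipoprotein assembly genes were tested, with a median of 0.06 and 0 called (1 at an unadjusted p under 0.05). Apob, the structural protein of triglyceride-rich lipoproteins, read 0.463, 0.250 and 0.342 with monuron and 0.692, 0.784 and 0.550 with corn oil. On this probe the log2 difference was -0.97 ± 0.25 (SE, limma adjusted p = 0.142), and its 5 passing probes ran from -0.97 to -0.12. Mttp, which loads lipid onto Apob, was dim and overlapped between groups (-0.70 ± 0.45, limma adjusted p = 0.475). Sar1b, which carries such particles out of the endoplasmic reticulum, gave 0.08 ± 0.07 (limma adjusted p = 0.584).

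Of 14 regulators of triglyceride genes 13 were tested, with a median of 0.11 and 0 called. At an unadjusted p under 0.05 there were 5 higher and 1 lower. Pparg, a nuclear receptor that drives fat storage, read 0.191, 0.202 and 0.218 with monuron and 0.136, 0.161 and 0.151 with corn oil (0.45 ± 0.09 SE, limma adjusted p = 0.0953). Its second, dimmer probe had a log2 difference of -1.61, and the mean of both gave -0.58. Insig1, which restrains the SREBP proteins, gave 0.35 ± 0.08 (limma adjusted p = 0.115) and Mlx, the partner of the sugar-sensing factor Mlxipl, gave 0.23 ± 0.06 (limma adjusted p = 0.160). The differences of Pparg, Insig1 and Mlx became -0.06, -0.16 and -0.28 with spike-in scaling.

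Other users of diacylglycerol, such as diacylglycerol kinases and enzymes of phospholipid synthesis, had 12 of 17 genes tested, a median of 0.10 and 0 called (1 at an unadjusted p under 0.05). Pcyt2, of phosphatidylethanolamine synthesis, gave -0.26 ± 0.10 (SE, limma adjusted p = 0.256). The phospholipid enzyme gene Cept1 gave 0.15 ± 0.06 (limma adjusted p = 0.296) and the kinase gene Dgka 0.14 ± 0.07 (limma adjusted p = 0.361), and both were below 0 with spike-in scaling (-0.36 and -0.37).

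On the rat genome (RefSeq gene order, assembly GRCr8) Mogat2 lies on chromosome 1 with Dgat2 as its nearest protein-coding neighbour on one side. The 5 protein-coding genes on each side were looked up after the values were seen. Besides Dgat2, 6 of them were tested: Thap12, Wnt11, Uvrag, Serpinh1, Klhl35 and Rps3. On their brightest probes the log2 differences ran from -0.04 to 0.37 with percentile scaling, and another Thap12 probe was at -0.14. With limma 0 of the 6 were called, 0 had an unadjusted p under 0.05, and the smallest adjusted p was 0.377. Groups overlapped for each of the 6 genes.

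**Figure D4:**
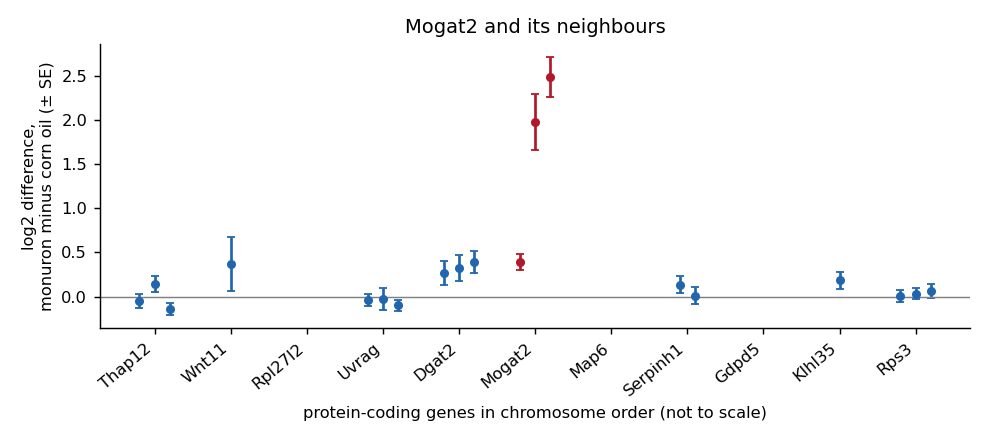
Log2 difference, monuron minus corn oil, with its SE for every passing probe of Mogat2 (red) and of the 5 protein-coding genes on either side (blue), in chromosome order and not to scale. The difference of 2.49 is on the brightest Mogat2 probe and that of 1.98 on one that no corn oil array measured above background, while the tested neighbours other than Dgat2 lie between -0.04 and 0.37 on their brightest probes. Genes without a point had no passing probe.

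By pattern over the 6 arrays, the gene most like Mogat2 (brightest probe) among 12063 others with a symbol was Pcyox1, with a Pearson correlation of 0.9989. It was followed by Tvp23b, Rasl2-9, Havcr1 and Fermt2, at 0.9954 to 0.9958. Havcr1, which encodes the tubule injury marker kidney injury molecule 1, had a log2 difference of 3.75 ± 0.20 (SE), whereas the other 4 lay between 0.11 and 0.32, all smaller than the shift that spike-in scaling makes (median of all genes -0.49). The most opposite patterns were those of Commd8, Sugct, Trappc9, Arb2a and Fastkd3, at -0.9981 to -0.9935. Such values describe 6 arrays that fall into 2 treatment groups on separate slides, and any gene that separates the groups evenly scores highly.

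All 9 proximal tubule markers, all 6 of the loop, distal tubule and collecting duct and all 4 podocyte markers were measured. All 10 hepatocyte markers were measured too, so being measured does not by itself identify the tissue. Proximal tubule markers, summed as relative signal, came to 1570 to 1640 on the monuron arrays and 1750 to 1920 on the corn oil arrays, with 0 of the 9 called by limma. Podocyte markers came to 28.9 to 29.7 with monuron and 30.9 to 37.8 with corn oil. Red cell markers came to 1500 to 1610 with monuron and 635 to 882 with corn oil, and all 5 measured ones were called higher by limma. These 3 sums separated the groups, the red cell markers upward and the tubule and podocyte markers downward with monuron, and their part in the Mogat2 difference was not tested. Single tubule and podocyte markers did not all follow their sum. Of the 9 proximal tubule markers 4 were separate downward, and log2 differences ran from -0.69 to 1.04. Of the 4 podocyte markers 0 were separate downward and 1 upward. Among all tested genes 10.3% were separate downward and 15.5% upward. In bulk tissue, fewer cells of a type and less RNA per cell cannot be told apart.

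Summed markers of other cells rich in triglyceride enzymes overlapped between the groups, though single markers did not all do so. Hepatocyte markers (10 of 10 measured) summed to 55.5, 31.7 and 27.6 on monuron arrays 1 to 3, against 20.2, 24.0 and 38.7 on corn oil arrays 1 to 3. Their median log2 difference was 0.50, with 0 called by limma, 1 at an unadjusted p under 0.05 and 1 with separate groups (Fgb, a fibrinogen chain, 1.05 ± 0.41 SE). Fgb read 3.4, 1.9 and 1.87 with monuron and 1.01, 0.717 and 1.87 with corn oil, so its groups barely separated. The liver fatty acid binding protein gene Fabp1 read 3.52, 0.863 and 0.684 with monuron and 0.378, 0.192 and 1.57 with corn oil. Without monuron array 1 and corn oil array 3, the arrays highest in albumin transcript of each group, the brightest Mogat2 probe had a log2 difference of 2.72. This pair was chosen after the data were seen. Monuron array 1 was also the lowest monuron array on that probe, so leaving it out had to raise the monuron mean. The part of hepatocyte transcripts in the differences of the 10 genes was not tested.

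Adipocyte markers (5 of 8 measured) summed to 1.58 to 1.61 with monuron and 1.29 to 2.31 with corn oil, with a median log2 difference of -0.49 and 0 called by limma (1 at an unadjusted p under 0.05). That gene was Cidec, given above, at 1.03 ± 0.32 (SE) with separate groups. Leptin had 0 arrays above background, and Fabp4 at most 1 in either group. Adiponectin was detected on all 6 arrays, at 1.04, 0.653 and 0.676 with monuron and 0.920, 0.957 and 0.956 with corn oil, an overlap with a log2 difference of -0.29 ± 0.19. Enterocyte markers (4 of 8 measured) summed to 1.21 to 1.48 with monuron and 0.993 to 1.58 with corn oil. Only 5 of the 8 had a named probe. Of these, only the defining enterocyte gene Fabp2 failed the filter, with 0 arrays above background. Macrophage and endothelial markers also overlapped between groups, at 11.6 to 18 with monuron and 14.3 to 21.3 with corn oil, and at 27.5 to 34.4 with monuron and 32.7 to 35.4 with corn oil. Cidec, Apoa1, Apoa4, Apoc3, Fabp2 and Fabp4 stand both in a pathway list and in a marker list.

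**Figure D5:**
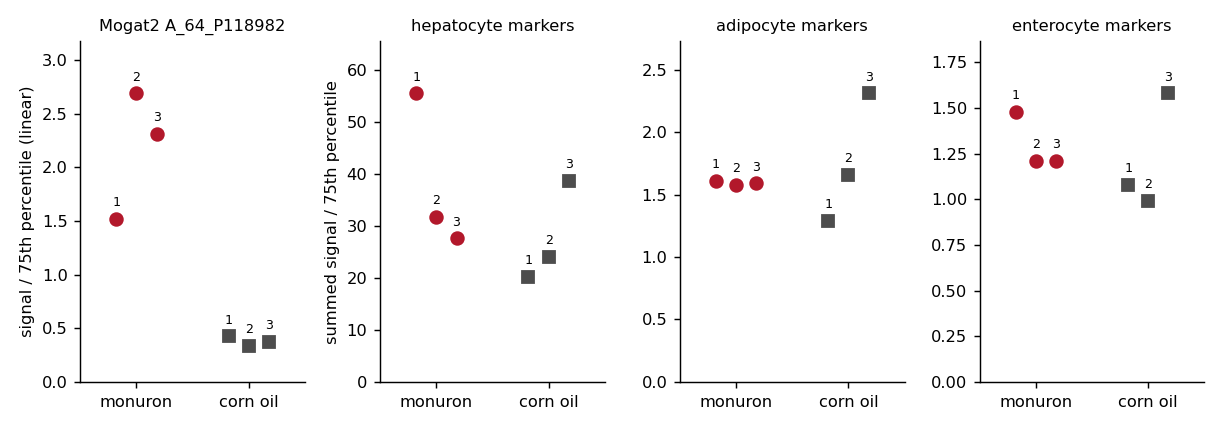
Relative signal of the brightest Mogat2 probe and summed relative signal of hepatocyte, adipocyte and enterocyte markers on each array (linear vertical axes from 0), for monuron (red circles) and corn oil (grey squares), numbered by replicate. Mogat2 is at 1.52 to 2.69 with monuron and 0.335 to 0.425 with corn oil, whereas the groups overlap in the 3 marker panels.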

How the data were processed

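All 6 arrays (1-colour) were read, 3 with monuron and 3 with corn oil. The deposited scanner files hold linear spot intensity, and Agilent Feature Extraction 10.7 is the tool that the submitters' processing notes name for the authors' work. The value table deposited by the authors is on a ratio scale. Values of at least 0.1 equal the processed signal over 1 constant per array within 0.0497%, with column medians of 0.108 to 0.112, so its scale is settled and it served as an alternative.

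Each array's processed signals were divided by their 75th percentile and put on the log2 scale. The 1439 control spots and spots marked as outliers were left out, and 0 spots were saturated. Accessions, without versions, were matched to RefSeq genes (GRCr8), which named 28206 of 61537 probes (45.8%), and the arrays' design cites an older build, so no coordinates are given. The filter left 41125 probes and 30229 genes, each represented by its brightest probe. Monuron was set against corn oil in R 4.3.3 with limma 3.58.1 (lmFit, eBayes, two-sided, Benjamini-Hochberg over all genes, threshold 0.05), and single probes were fitted over all 41125 probes. The functions were checked on simulated arrays. Members and lists were chosen with earlier results of these data known. Named were all members, any called gene and the 3 smallest p of each pathway list, the 5 genes most and least like Mogat2, and markers as lists with their defining genes. A gene that this rule names is not reported here. Neighbours, Fabp1, Fgb, adiponectin and the Mogat genes without a test were named after their values were seen.

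Deviations of same-numbered arrays correlated at -0.08, 0.11 and -0.17, and those of differently numbered arrays at -0.13 to 0.22. These values give no sign that the replicate numbers pair the rats, but with 3 arrays per group they cannot settle it. The precision is limited by 3 arrays per group.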

Additional observations from a re-analysis of the deposited data

How the results depend on the processing

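The brightest Mogat2 probe kept its sign and stayed between 2.28 and 2.73 (log2) under all alternatives but spike-in scaling (1.98), and leaving out each array in turn gave 2.32 to 2.73. Averaged over its 3 probes, the dimmest one near the detection limit included, Mogat2 gave 1.62. Its call over all genes was lost in 5 of the 6 fits without 1 array, with the replicate block and in the fit lacking both arrays richest in albumin transcript (chosen after seeing the data). The dimmest Mogat2 probe was at 0.42 with normexp and 0.86 with a floor on low values.

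Of all tested genes, 0.949% were called higher (287) and 0.414% lower (125). No scaling gave 1.21% higher and 0.202% lower (366 and 61), and spike-in scaling 0.979% higher and 68.5% lower (296 and 20702). Normexp gave 1.49% higher and 1.05% lower (450 and 317), and no detection filter 0.147% and 0.0418% (67 and 19). With limma's trend and robust estimation these were 1.43% and 0.913% (431 and 276). Leaving out each array gave 0.0821% to 0.366% higher and 0.0164% to 0.0891% lower. The replicate block treats same-numbered arrays as pairs, a pairing that is not settled here. That block and the fit lacking both albumin-rich arrays each gave 0 higher and 0 lower with limma. They had 4557 and 4190 genes at an unadjusted p under 0.05. Of the 88 pathway genes, 0 were called higher or lower, against 2 higher with no scaling (Lpin3 and Pparg), 61 lower with spike-in scaling, 3 and 3 with normexp, and 2 and 3 with trend and robust estimation. The median of all genes moved to 0.11 without scaling and -0.49 with spike-in scaling. Spike-in scaling turned Sar1b (-0.43), Mlx (-0.28), Pparg (-0.06), Insig1 (-0.16), Dgka (-0.37) and Cept1 (-0.36), and the mean of its probes turned Pparg (-0.58). Apart from scaling choices and fewer arrays or probes, the cause of these shifts was not tested. Signals near background, as for Lpin1, limit what can be said of small differences.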
